A study of Mus musculus with 4 samples.

Results

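The 9 genes Dusp1, Dusp2, Dusp3, Dusp4, Dusp5, Dusp6, Dusp7, Dusp10 and Dusp16, which encode dual-specificity phosphatases of the mitogen-activated protein (MAP) kinases, were followed in 4 RNA-seq libraries of mouse myeloid cells. They were chosen by gene name, with earlier results of these data known, and all 9 were found among the 24706 genes measured. The libraries are labelled wt and cko, with 2 in each group. Per the study's methods, the Pdcd1 exon was flanked by LoxP sites in both groups (PD-1f/f), and the cko mice also carried LysM-Cre, which drives Cre recombinase in myeloid cells, although wild-type mice are also named there as controls. The cells are described at one place as CD11b+ cells sorted from the liver of pups around postnatal day 3 and at another as whole liver at postnatal day 2, and this was not resolved. Neither the labels nor the methods say whether the libraries came from separate animals, so p-values measure the spread between these libraries, which may be technical for the cko pair. The wt libraries differed in sex, as given below, and so were not from the same animal.

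MAP kinases (ERK, JNK and p38) are switched on by phosphorylation of a threonine and a tyrosine in their activation loop, and the dual-specificity phosphatases remove both phosphates. Most of these enzymes bind their kinases through a separate amino-terminal domain, which sets their preference for ERK or for JNK and p38. Several are induced by the kinases they switch off, and in myeloid cells they are known for limiting the response to inflammatory stimuli.

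The data are FPKM values, that is, read numbers scaled to the length of the gene and to the total of the library. Library totals worked out from these values ranged from 17691505 to 22212407 reads. The target gene, Pdcd1, had 28.5 and 34.7 FPKM in the wt libraries and 17.1 and 21.4 FPKM in the cko libraries, so that its transcripts remained in both cko libraries. Of 8 general myeloid genes, Itgam, which encodes CD11b, had 51.4 and 54.3 FPKM in wt and 48.5 and 49.4 FPKM in cko, and Ptprc, which encodes CD45, lay between 58.1 and 75.1 FPKM. Spi1, which encodes the myeloid transcription factor PU.1, had 77.3 and 126 FPKM in wt and 264 and 145 FPKM in cko. Csf3r, the G-CSF receptor gene, had 81.5 and 80.3 against 104 and 140 FPKM. Of the 7 tested genes of this list, 2 were higher (Spi1 and Csf3r) and 2 lower (Itgam and Lyz2) in both cko libraries. The summed level of 15 neutrophil genes was 162328 and 138185 FPKM in wt and 112203 and 93197 FPKM in cko, with 8 of the 15 lower and 5 higher in both cko libraries. The lysozyme gene Lyz2, whose locus carries Cre in LysM-Cre mice, was at 31306 and 32147 FPKM in wt against 10422 and 8127 FPKM in cko. The part of the Cre allele in this difference was not tested. The summed level of 17 erythroid genes was 3851 and 2419 FPKM against 1485 and 1583 FPKM, with 12 of the 17 lower in both cko libraries than in both wt libraries. The sum of 8 monocyte genes was 519 and 497 FPKM against 513 and 641 FPKM (4 higher and 1 lower in both cko libraries) and that of 10 macrophage genes 392 and 266 FPKM against 269 and 452 FPKM (1 higher and 0 lower). The sum of the hepatocyte genes was 91.4 and 153 FPKM against 64.7 and 79.3 FPKM, that of the T cell genes 68.8 and 49.5 against 39.7 and 34.1 FPKM, and that of the B cell genes 59.7 and 72.2 against 35.8 and 47.2 FPKM. In these lists 5, 3 and 7 tested genes were lower in both cko libraries and 0 were higher. The T cell sum lay mostly in Gzma (44.0 and 26.5 FPKM in wt, 10.5 and 15.7 FPKM in cko) and Nkg7 (15.7 and 10.8 against 21.8 and 11.8 FPKM). Both are also genes of cytotoxic NK cells, so this sum is not a level of T cells alone. Transcripts of Y-linked genes marked wt replicate 2 alone, and those of Xist the other 3 libraries, so that the wt libraries came from mice of different sex. In bulk RNA a change in the mix of cells cannot be told apart from a change per cell, and the part of these markers, and of sex, in the results below was not tested.

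Of the 9 phosphatase genes, Dusp2, Dusp16, Dusp5 and Dusp3 were higher in both cko libraries than in both wt libraries, Dusp6 was lower in both, and Dusp1, Dusp4, Dusp7 and Dusp10 overlapped between the groups. Log2(FPKM + 1) values were compared with limma after genes whose mean lay under 1 FPKM had been removed, a filter that 8 of the 9 passed and Dusp4 did not. No phosphatase gene passed a |log2FC| of at least 1 with an adjusted p under 0.05, nor did any of the 10779 genes tested (0.0%) with limma, while 1768 genes had an unadjusted p under 0.05. With voom on the recovered reads, 2 genes passed it and 2070 of 13626 had an unadjusted p under 0.05. Dusp2 was the 1 phosphatase gene with a log2FC above 1 and an unadjusted p under 0.01, which 203 of all tested genes reached (1.88%), and none lay past these limits on the lower side, as 44 genes did (0.408%). At an unadjusted p under 0.05, 4 of the 8 tested phosphatase genes were higher in cko, against 11.4% of all tested genes, and 0 were lower, against 4.95%. The 4 genes above wt in both cko libraries stand beside 33.6% of all tested genes, and the 1 gene below stands beside 18.0%. The median log2 fold change of the 8 genes was 0.75, against 0.09 for all tested genes, and 7 of the 8 lay above 0, as did 60.4% of all tested genes. Since the genes were chosen with earlier results of these data known, these comparisons with all tested genes are descriptions only.

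**Figure D1:**
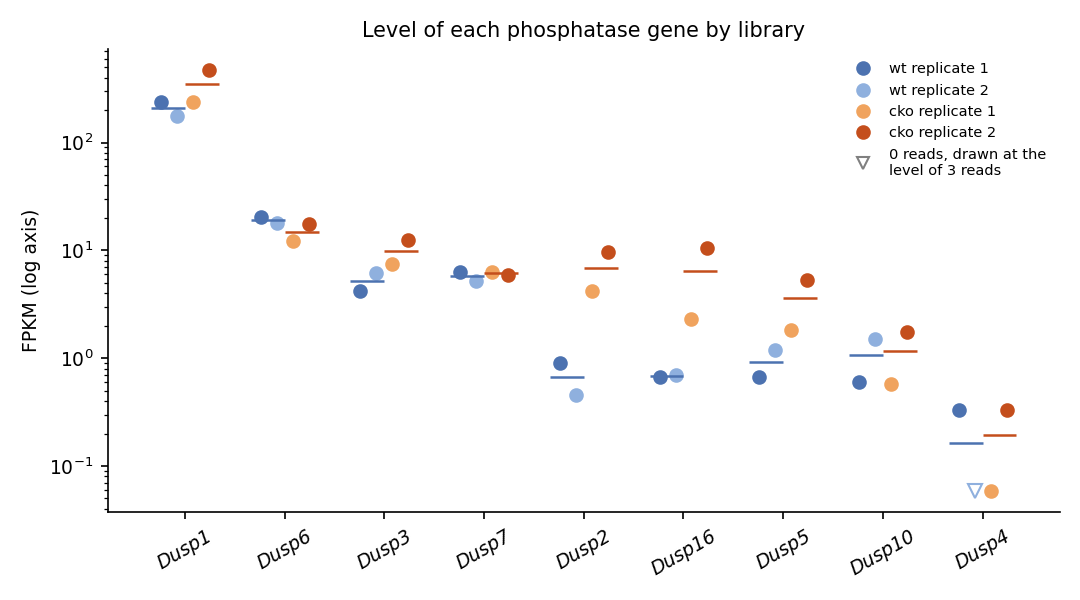
FPKM of the 9 phosphatase genes on a log axis, 1 point per library, with lines at the group means (blue for wt, orange for cko). Dusp1 lies far above the others in every library, both cko points of Dusp2, Dusp16, Dusp5 and Dusp3 lie above both wt points, and the open triangle marks the library in which Dusp4 had 0 reads.

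Dusp1 was the most abundant of the 9 in every library. It encodes MKP-1, a nuclear phosphatase that is induced within minutes of a stimulus and acts on p38, JNK and ERK. Its gene lies on the minus strand of chromosome 17 from 26505590 to 26508519 (ENSMUSG00000024190), and it ranked 128th of the tested genes by mean FPKM. Dusp1 had 239 and 177 FPKM in wt replicates 1 and 2 and 236 and 468 FPKM in cko replicates 1 and 2. Only cko replicate 2 stood above wt replicate 1, so the groups overlapped. The means were 208 ± 43.9 FPKM and 352 ± 164 FPKM (SD, n = 2 each), and the log2 fold change was 0.69 (standard error 0.35, 95% confidence interval -0.17 to 1.56, limma adjusted p = 0.374). Its read numbers, from 8965 to 22343, leave little counting error, so that the spread lies between libraries. Without cko replicate 1 the log2 fold change was 1.19 and without cko replicate 2 it was 0.2.

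The 250 bases before the start site of Dusp1 hold the palindromic cyclic AMP response element TGACGTCA, a sequence bound by CREB and ATF factors, which was found in 1.55% of all 32851 mouse promoters searched. It is shown because Dusp1 was the only one of the 8 phosphatase genes in the promoter table with this match. The stretch lies on the minus strand at chr17:26508598-26508625 (RefSeq, GRCm38.p6), and capitals mark the element, which starts 143 bases before the start site.
Dusp1: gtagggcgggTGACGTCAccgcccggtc

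Dusp2 had the highest log2 fold change of the 8 tested genes over the 4 libraries, although without cko replicate 1 that of Dusp16 was higher (2.77 against 2.68). It encodes PAC-1, a nuclear phosphatase found mainly in haematopoietic cells and induced on their activation. The gene spans 2218 bp on the plus strand of chromosome 2, from 127336159 to 127338376 (ENSMUSG00000027368). Dusp2 had 0.899 and 0.451 FPKM in wt replicates 1 and 2, from 40 and 17 reads, and 4.21 and 9.65 FPKM in cko replicates 1 and 2, from 158 and 342 reads. Both cko libraries lay above both wt libraries, and cko replicate 2 was 2.29 times as high as cko replicate 1. In RPM, the same values without the scaling to length, the 95% Clopper-Pearson intervals of the wt libraries reached up to 2.45 and those of the cko libraries started at 7.17. These intervals and those given below cover counting error only. The mean level was 0.675 ± 0.317 FPKM in wt and 6.93 ± 3.85 FPKM in cko (SD, n = 2 each), a ratio of 10.3. On the log2(FPKM + 1) scale, which understates the change of low genes, the log2 fold change was 2.17 (standard error 0.38, 95% confidence interval 1.21 to 3.12, unadjusted p = 0.00169, limma adjusted p = 0.189). This fold change ranked 34th of the 10779 tested genes. With wt replicate 2 left out the log2 fold change was 1.97 and Dusp2 no longer had an unadjusted p under 0.01.

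Upstream of Dusp2 lie 3 GC boxes (GGGCGG on either strand, bound by Sp1-type factors and found in 32.7% of all promoters) and 1 E-box (CACGTG, found in 6.02%). They are shown because Dusp2 was the gene with the smallest p-value. The stretch is on the plus strand at chr2:127335982-127336080 (RefSeq, GRCm38.p6), and capitals mark these matches.
Dusp2: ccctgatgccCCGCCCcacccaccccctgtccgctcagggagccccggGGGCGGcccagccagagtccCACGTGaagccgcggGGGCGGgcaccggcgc

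Dusp4 and Dusp5 are the other nuclear enzymes. Dusp4, which encodes MKP-2, lies on the plus strand of chromosome 8 from 34807297 to 34819894 (ENSMUSG00000031530). It had 0.329 FPKM in wt replicate 1 from 20 reads and 0 reads in wt replicate 2, whose RPM interval reached up to 0.196. A level of 3 reads in wt replicate 2 would be 0.0582 FPKM. The cko libraries had 0.0584 and 0.33 FPKM, from 3 and 16 reads. The higher library of each group was at nearly the same level, and at these read numbers no difference between the groups was detectable.

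Dusp5, whose product acts on ERK and is itself induced by ERK signalling, was higher in both cko libraries. It lies on the plus strand of chromosome 19 from 53529109 to 53542431 (ENSMUSG00000034765). It had 0.674 and 1.18 FPKM in wt, from 37 and 55 reads, and 1.83 and 5.35 FPKM in cko, from 85 and 234 reads. The RPM intervals of wt replicate 2 (2.2 to 3.8) and cko replicate 1 (3.62 to 5.61) overlapped at their ends. Whether these neighbouring libraries differed beyond counting error was not tested. The means were 0.928 ± 0.359 FPKM and 3.59 ± 2.49 FPKM (SD, n = 2 each), a ratio of 3.87. The log2 fold change was 1.15 (standard error 0.42, 95% confidence interval 0.09 to 2.21, unadjusted p = 0.0376, limma adjusted p = 0.276), and without cko replicate 2 it was 0.57. An annotated gene on the opposite strand, AC137853.2, shares exon sequence with Dusp5, and the strand setting of the counting is not given in the sources used here.

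Dusp5 was the only one of the 8 genes with a CArG box, the site of serum response factor, which was found in 1.47% of all promoters. It has 2 of them side by side, starting 82 and 72 bases before the start site, and the second overlaps a TATAA match. The stretch lies on the plus strand at chr19:53529053-53529092 (RefSeq, GRCm38.p6), with both CArG boxes in capitals. Srf itself, the gene of this factor, had 3.2 and 3.89 FPKM in wt and 7.7 and 7.15 FPKM in cko.
Dusp5: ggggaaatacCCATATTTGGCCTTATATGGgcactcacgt

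Of the cytoplasmic phosphatases of ERK, Dusp6 was lower in both cko libraries and Dusp7 overlapped between the groups. Dusp6 encodes MKP-3, a feedback inhibitor of ERK that is widely used as a readout of ERK activity, and lies on the plus strand of chromosome 10 from 99263231 to 99267489 (ENSMUSG00000019960). It had 20.5 and 17.9 FPKM in wt and 12.1 and 17.5 FPKM in cko, from 709 to 1429 reads. Both cko libraries lay below both wt libraries, but cko replicate 2 was within counting error of wt replicate 2, at 54.7 (51.3 to 58.3) against 56.1 (52.8 to 59.6) RPM. The means were 19.2 ± 1.86 FPKM and 14.8 ± 3.81 FPKM (SD, n = 2 each), and the log2 fold change was -0.38 (standard error 0.21, 95% confidence interval -0.91 to 0.16, limma adjusted p = 0.421). With erythroid and hepatocyte genes removed and all libraries rescaled to equal summed FPKM, the groups overlapped for Dusp6. Dusp1 and Dusp7 were then higher in both cko libraries.

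Dusp7, which encodes MKP-X, lies on the plus strand of chromosome 9 from 106368632 to 106375724 (ENSMUSG00000053716). It had 6.33 and 5.21 FPKM in wt and 6.33 and 5.91 FPKM in cko, so that the cko values lay within the wt range. The log2 fold change was 0.08 (standard error 0.18, limma adjusted p = 0.856) and its 95% confidence interval, from -0.37 to 0.52, bounds a change of either sign. Under median-of-ratios scaling its sign turned, at -0.02.

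Dusp10 and Dusp16 encode MKP-5 and MKP-7, which act on JNK and p38 rather than on ERK, and they differed from each other in these libraries. Dusp16 lies on the minus strand of chromosome 6 from 134715468 to 134792625 (ENSMUSG00000030203). It had 0.675 and 0.695 FPKM in wt, from 117 and 102 reads, and 2.32 and 10.5 FPKM in cko, from 339 and 1443 reads. The wt libraries were alike and both cko libraries stood above them, with cko replicate 2 at 4.51 times the level of cko replicate 1. The means were 0.685 ± 0.0138 FPKM and 6.39 ± 5.76 FPKM (SD, n = 2 each), a ratio of 9.33. The log2 fold change was 1.87 (standard error 0.57, 95% confidence interval 0.45 to 3.3, unadjusted p = 0.0189, limma adjusted p = 0.24). It was 2.77 without cko replicate 1 and 0.98 without cko replicate 2.

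Dusp10 lies on the plus strand of chromosome 1 from 184013302 to 184075636 (ENSMUSG00000039384). It had 0.607 and 1.52 FPKM in wt, from 41 and 87 reads, and 0.579 and 1.75 FPKM in cko, from 33 and 94 reads. In each group replicate 2 was the higher library, and the spread within the groups was larger than the difference between them. The log2 fold change was 0.05 (standard error 0.40, 95% confidence interval -0.94 to 1.04, limma adjusted p = 0.965), and quantile normalization gave -0.19. Within a library, the ratio of Dusp16 to Dusp10 was 1.11 and 0.457 in wt and 4.01 and 5.99 in cko.

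The 250 bases before the start site of Dusp16 hold 5 GC boxes, the most of the 8 genes, and 2 of them share a base. They are shown for comparison with Dusp2. The stretch lies on the minus strand at chr6:134792752-134792834 (RefSeq, GRCm38.p6), with the GC boxes of either strand in capitals.
Dusp16: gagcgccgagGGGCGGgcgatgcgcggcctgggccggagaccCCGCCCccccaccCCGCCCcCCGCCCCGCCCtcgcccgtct

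Dusp3 encodes VHR, a small phosphatase without the kinase-binding domain of the other enzymes, which acts on ERK and JNK. It lies on the minus strand of chromosome 11 from 101971143 to 101987013 (ENSMUSG00000003518). It had 4.22 and 6.13 FPKM in wt, from 439 and 540 reads, and 7.51 and 12.4 FPKM in cko, from 659 and 1023 reads. Both cko libraries lay above both wt libraries, and the RPM interval of cko replicate 1 (32.5 to 38.0) lay above that of wt replicate 2 (26.3 to 31.2). The means were 5.17 ± 1.35 FPKM and 9.93 ± 3.42 FPKM (SD, n = 2 each), a ratio of 1.92. The log2 fold change was 0.81 (standard error 0.28, 95% confidence interval 0.10 to 1.51, unadjusted p = 0.0322, limma adjusted p = 0.268). The annotated gene Gm20659 on the opposite strand shares exon sequence with Dusp3.

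**Figure D2:**
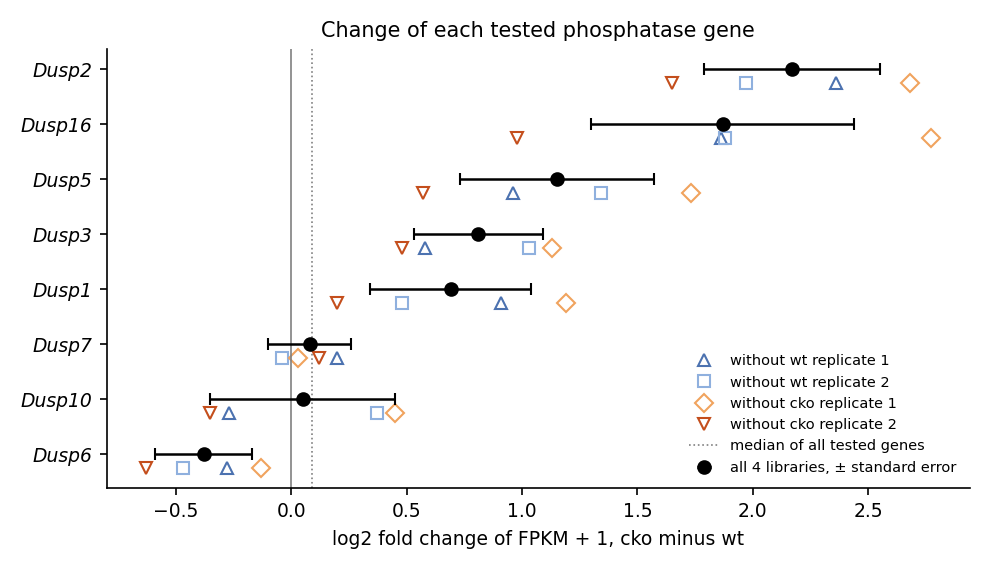
Log2 fold change of FPKM + 1, cko minus wt, of the 8 tested phosphatase genes (black points, with standard errors) and the values with each library left out in turn (open symbols). Dusp2, Dusp16, Dusp5, Dusp3 and Dusp1 lie above 0 with any library left out, with lower values without cko replicate 2 and higher values without cko replicate 1.

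cko replicate 2 held the higher value of the cko pair for 8 of the 9 genes, all but Dusp7, although Dusp4 had only 3 and 16 reads in this pair. The same share over all tested genes was not counted, so this is not read as a trait of the phosphatase genes. A principal component analysis over all tested genes gave scores on its leading component (55.1% of the variance) of -26.7 and -22.2 for wt, 11.4 for cko replicate 1 and 37.4 for cko replicate 2, the library farthest from the others. Relative to the wt mean, the median log2 difference of the 8 tested phosphatase genes was 0.34 in cko replicate 1 and 1.16 in cko replicate 2. Without cko replicate 1, Dusp1, Dusp2, Dusp5 and Dusp16 had a log2FC above 1 with an unadjusted p under 0.01, and without wt replicate 2 none had.

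FPKM values are per length, so levels can be set side by side between genes. In wt the order was Dusp1, Dusp6, Dusp7, Dusp3, Dusp10, Dusp5, Dusp16, Dusp2 and Dusp4, in which Dusp7 and Dusp3 overlapped, as did each neighbouring pair from Dusp10 to Dusp2. In cko the order was Dusp1, Dusp6, Dusp3, Dusp2, Dusp16, Dusp7, Dusp5, Dusp10 and Dusp4, and each neighbouring pair from Dusp6 to Dusp7 overlapped. Across the libraries of a group, Dusp6 thus stood clear of the next gene in wt and not in cko. Within each cko library Dusp6 was still above Dusp3, at 12.1 against 7.51 FPKM in cko replicate 1 and 17.5 against 12.4 FPKM in cko replicate 2. The summed level of the 9 genes was 273 and 210 FPKM in wt and 271 and 532 FPKM in cko, of which Dusp1 held 87.4% and 84.2% in wt and 87.1% and 88.1% in cko.

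Among the other 8 genes the shares within a library differed between the groups. Dusp6 held 59.9% and 54.1% of their summed FPKM in wt and 34.6% and 27.6% in cko. Dusp2 held 2.62% and 1.36% in wt and 12.1% and 15.3% in cko. Dusp16 held 1.97% and 2.1% in wt and 6.64% and 16.5% in cko. The groups did not overlap for any of these 3 shares, nor for those of Dusp5 and Dusp3. The share of Dusp5 was 1.97% and 3.57% in wt and 5.25% and 8.45% in cko. That of Dusp3 was 12.3% and 18.5% in wt and 21.5% and 19.5% in cko. The summed FPKM of the 8 genes was 34.3 and 33.1 in wt, 34.9 in cko replicate 1 and 63.3 in cko replicate 2, so that in cko replicate 1 the makeup differed at about the same sum. Shares of a sum depend on each other, so higher levels of other genes lower the share of Dusp6. In cko replicate 2 the FPKM of Dusp6 (17.5) was close to that in wt replicate 2 (17.9).

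**Figure D3:**
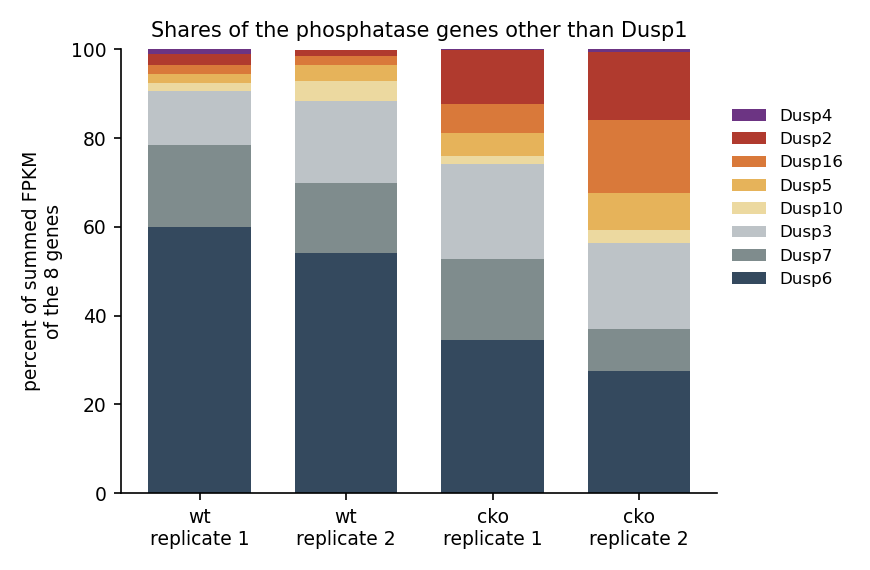
Share of each phosphatase gene in the summed FPKM of the 8 genes other than Dusp1, in percent, by library. Dusp6 takes over 50% in both wt libraries and under 40% in both cko libraries, where Dusp2, Dusp16, Dusp5 and Dusp3 take more.

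Ratios within a library do not depend on its total. Relative to Dusp6, Dusp2 was at 0.0438 and 0.0252 in wt and at 0.348 and 0.552 in cko. The ratio of Dusp16 to Dusp6 was 0.0329 and 0.0388 in wt and 0.192 and 0.599 in cko, and that of Dusp5 was 0.0328 and 0.066 against 0.152 and 0.306. For Dusp1 it was 11.6 and 9.86 in wt and 19.6 and 26.8 in cko, so that Dusp1, whose FPKM overlapped, did not overlap relative to Dusp6. The ratio of Dusp3 to Dusp6 was 0.206 and 0.342 against 0.622 and 0.707. That of Dusp7, whose FPKM also overlapped, was 0.308 and 0.291 against 0.524 and 0.338. Dividing by Dusp6, whose FPKM was lower in both cko libraries, raises all these ratios in cko relative to the FPKM values. An exact permutation test of 2 against 2 libraries cannot give a two-sided p below 0.333, so these ratios are given without a test.

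The genes with the most similar pattern were sought by the Euclidean distance between log2(FPKM + 1) values over the 4 libraries, each gene centred on its mean, among 10778 genes. For Dusp1 these were P4ha1, Fgl2, Fn1, Arg2 and Zfp36l1, at distances from 0.0839 to 0.134. Fn1, the fibronectin gene, had 8.6 and 5.82 FPKM in wt and 7.73 and 16.3 FPKM in cko, with cko replicate 2 alone above both wt libraries. For Dusp2 they were Steap4, Bcl3, Cdc42ep2, Gm22043 and Itga5, at distances from 0.17 to 0.374. Bcl3, a nuclear member of the IκB family, had 2.78 and 2.17 FPKM in wt and 9.9 and 17.9 FPKM in cko. Itga5, an integrin subunit that binds fibronectin, had 2.41 and 2.68 FPKM in wt and 11.1 and 24.0 FPKM in cko. All these genes were picked for their likeness to Dusp1 or Dusp2, so the shared pattern follows from the choice.

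The kinases and other genes of the MAP kinase cascades were read from 8 lists with 112 distinct genes, of which 77 were tested. At an unadjusted p under 0.05, 15 were higher in cko (19.5%, against 11.4% of all tested genes) and 2 were lower (against 4.95%). None had a log2FC beyond 1 in either direction with an unadjusted p under 0.01, and limma gave 0 with an adjusted p under 0.05. Their median log2 fold change was 0.2. Both cko libraries lay above both wt libraries for 38 of the 77 and below for 8, beside 33.6% and 18.0% of all tested genes.

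Among the substrates of the phosphatases, 10 of 14 MAP kinase genes were tested and 3 were higher in cko at an unadjusted p under 0.05. Mapk14, which encodes p38α, had 23.3 and 28.4 FPKM in wt and 36.7 and 35.1 FPKM in cko (log2 fold change 0.46, limma adjusted p = 0.262). Mapk8, which encodes JNK1, had 1.97 and 2.58 against 4.96 and 4.13 FPKM (log2 fold change 0.76, limma adjusted p = 0.22), and Mapk6, which encodes the atypical kinase ERK3, had 6.06 and 5.43 against 10.4 and 13.3 FPKM (log2 fold change 0.92, limma adjusted p = 0.199). For each of the 3, both cko libraries lay above both wt libraries.

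Upstream, 1 of the 7 tested MAP kinase kinase genes was higher and 1 was lower. Map2k3, whose product activates p38, had 35.2 and 35.8 FPKM in wt and 51.2 and 53.1 FPKM in cko. Map2k7, whose product activates JNK, had 11.5 and 9.14 against 7.23 and 6.54 FPKM, and neither overlapped between the groups. Map2k2, which encodes an activator of ERK, had 23.1 and 28.8 against 37.1 and 32.8 FPKM without passing this limit. Of the 13 tested MAP3 kinase genes, 1 was higher, Map3k5, which encodes the stress kinase ASK1, at 4.87 and 5.21 against 7.94 and 10.1 FPKM. The next smallest p-values were those of Braf, with a log2 fold change of 0.39 (limma adjusted p = 0.312), and Map3k8, with one of 0.91 (limma adjusted p = 0.34).

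Downstream, 5 of 17 tested targets of the MAP kinases were higher and 0 lower. Rps6ka4, which encodes the nuclear kinase MSK2, had 4.55 and 5.01 FPKM in wt and 9.31 and 11.6 FPKM in cko. Jun, the transcription factor that JNK phosphorylates, had 72.2 and 71.4 against 118 and 149 FPKM, and Srf had the values given beside Dusp5. The log2 fold changes of these 3 were 0.98, 0.88 and 0.89, each with a limma adjusted p of 0.199.

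Of the ERK feedback genes, a list of regulators and of genes induced by ERK, 9 of 18 were tested. At this limit 2 were higher and none was lower. Ier3, an immediate early gene, had 66.6 and 51.4 FPKM in wt and 119 and 343 FPKM in cko (log2 fold change 1.77, limma adjusted p = 0.22), with cko replicate 2 the highest library as for Dusp1. Fosl1 had 9.05 and 13.6 against 20.4 and 19.0 FPKM (log2 fold change 0.78, limma adjusted p = 0.227). Fos, the next by p-value, had 1300 and 1030 against 1490 and 1450 FPKM (log2 fold change 0.34, limma adjusted p = 0.369). The median of these 9 genes was 0.34, with values from 0.01 to 1.77. All 9 lay above 0, as did 60.4% of all tested genes, whose median was 0.09.

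Of the 7 tested genes in the scaffold list, 1 was higher, Ksr1, a scaffold of the ERK cascade, at 1.33 and 2.18 FPKM in wt and 4.52 and 4.19 FPKM in cko. Spag9 had a log2 fold change of 0.44 (limma adjusted p = 0.398) and Arrb1 one of -0.29 (limma adjusted p = 0.496). The list's median was -0.05. This median includes Mapkapk3 (log2 fold change -0.23), a kinase that is not a scaffold and is also counted among the targets of the MAP kinases.

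The remaining dual-specificity phosphatases gave 1 higher gene, Ssh3, a slingshot phosphatase of cofilin, at 5.44 and 5.53 against 8.37 and 7.14 FPKM, and 1 lower gene, Dusp28, at 3.53 and 5.66 against 2.8 and 2.28 FPKM. Styx, a pseudophosphatase, had a log2 fold change of 0.47 (limma adjusted p = 0.345). In this list 7 of 20 genes were tested and the median was 0.18. A list of phosphatases of other families held 8 tested genes, of which 1 was higher and 0 were lower, with a median of 0.22. Not all of them act on MAP kinases directly, since Ptprc and Ptpn6 are in this list. Ppm1d had 1.92 and 1.62 FPKM in wt and 3.23 and 3.05 FPKM in cko (log2 fold change 0.58, limma adjusted p = 0.266), and Ppp2ca and Ptpn6 had log2 fold changes of 0.45 and 0.28 (limma adjusted p = 0.363 and 0.396).

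**Figure D4:**
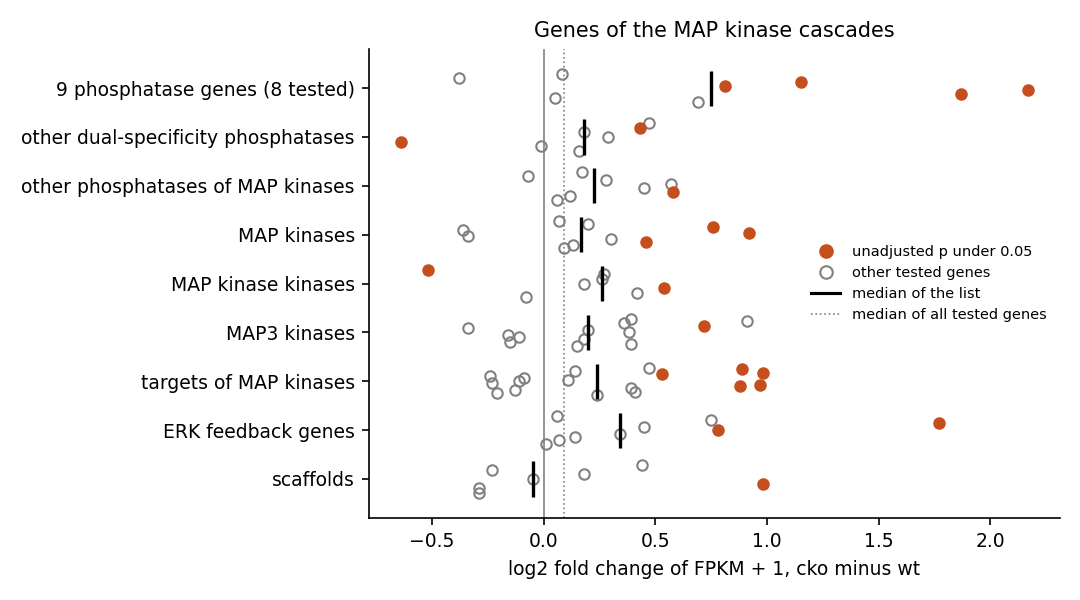
Log2 fold change of FPKM + 1, cko minus wt, of each tested gene by list, with the list medians (black lines) and the median of all tested genes (dotted line). The median of the 8 tested phosphatase genes is 0.75, and those of the other lists lie between -0.05 and 0.34. The list of other phosphatases of MAP kinases includes Ptprc and Ptpn6, which do not act on them directly. Mapkapk3 is drawn both among the targets and among the scaffolds, although it is not a scaffold.

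Promoters were searched for 9 motifs in the 250 bases before the RefSeq start site, on both strands, for the 8 of 9 phosphatase genes in the promoter table. GC boxes were found in 6 of the 8 (Dusp1, Dusp2, Dusp3, Dusp5, Dusp10 and Dusp16), against 32.7% of all promoters. The GC content of the 8 windows ranged from 56.4% to 77.2%, above the median of 52.4% for all promoters, and a motif of G and C only is met more often in such sequence. The shorter CRE core TGACG, which is also part of the full element, was found in Dusp1, Dusp5 and Dusp16, against 17.8% of all promoters. Besides Dusp2, Dusp1 held an E-box, and 1 gene, Dusp5, held TATAA (22.8% of all promoters). None of the 8 held a κB site (3.9%), an AP-1 site TGANTCA (6.75%) or the ETS core CCGGAA (12%), which says only that these letters are not in these windows. Dusp6 and Dusp7 held none of the 9 motifs. A match is a description of the sequence and not a site of binding.

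**Figure D5:**
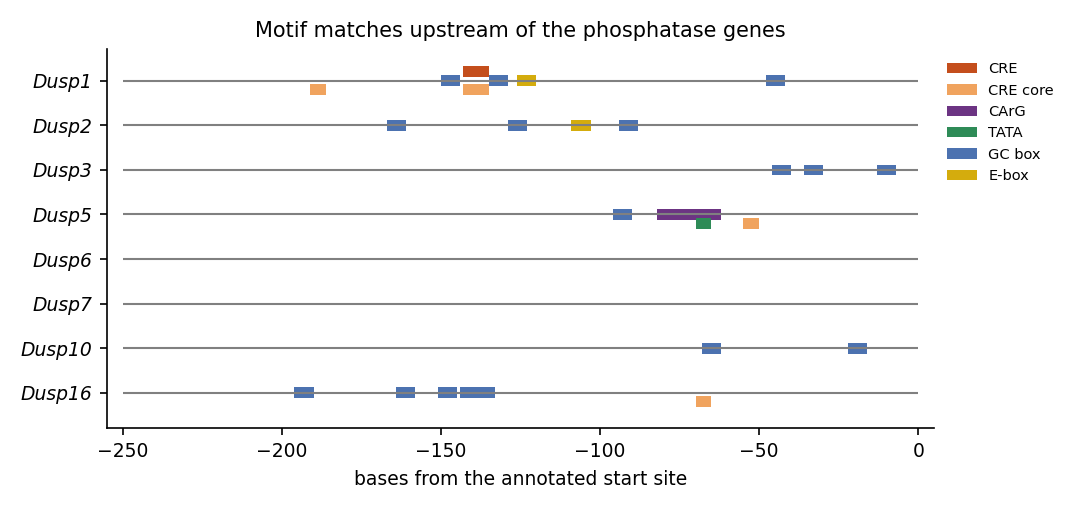
Position of the motif matches in the 250 bases before the start site of 8 phosphatase genes, in bases from the start site. The paired CArG boxes of Dusp5 (starting at -82 and -72) and the CRE of Dusp1 (starting at -143) occur in 1 gene each, whereas GC boxes occur in 6 genes.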

How the data were processed

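Total RNA of 4 libraries was sequenced. The authors deposited 1 FPKM value per gene and library. The submitters' processing notes name Bowtie2 2.2.3, TopHat2 2.0.12, HTSeq 0.6.0 and the build mm9, whereas 92.61% of the gene positions in the files were identical to GENCODE M21 on GRCm38, whose coordinates are used here. For Dusp1 the annotated gene reaches beyond the position in the files. Since the FPKM values of single-exon genes were whole multiples of 1 read (at least 99.97% within 0.02 reads), library totals were recovered, and with annotated lengths also the read numbers of 95.97% of the genes. Genes whose mean lay under 1 FPKM were removed, and log2(FPKM + 1) was compared with limma 3.58.1 in R 4.3.3 (eBayes, with a mean-variance trend) and Benjamini-Hochberg adjustment. The study gives 1 threshold in its methods and another in its results, and both were counted. The fit was tested on simulated data. Intervals of read shares are 95% Clopper-Pearson intervals, and a count of 0 was given the level of 3 reads.

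All 9 phosphatase genes are named. From each list of the cascades the up to 3 tested genes with the smallest p are named, with Pdcd1 and Lyz2 as checks and the 5 genes nearest in pattern to Dusp1 (highest mean) and to Dusp2 (smallest p). Other names were given as marker genes or with their list. The phosphatase genes and all lists were chosen with earlier results of these data known. Alternatives covered the pseudocount, filter, scaling, variance trend, replicate block, voom and each library left out. The ratio of mean FPKM and the crossed pairing were added after the values were seen. Dusp15, Dusp21, Dusp27 and Mos were not analysed here. Matches to RefSeq promoters (GRCm38.p6) used Python 3.11.15.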

Additional observations from a re-analysis of the deposited data

How the results depend on the processing

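Over 116 alternative values of the 8 tested phosphatase genes, 101 kept their direction and side of the thresholds, 7 of Dusp7 or Dusp10 changed sign without coming past a threshold, 1 was no longer past them (Dusp2 without wt replicate 2, 1.97), 4 were newly past them, and the log2 ratios of mean FPKM, which have no pseudocount, were larger for Dusp2 (3.36), Dusp5 (1.95) and Dusp16 (3.22). Adjusted p-values of Dusp2 ranged from 0.108 to 0.615, of Dusp16 from 0.103 to 0.617, of Dusp5 from 0.143 to 0.648, of Dusp3 from 0.151 to 0.649 and of Dusp1 from 0.155 to 0.761. The number of phosphatase genes with a |log2FC| above 1 and an unadjusted p under 0.01 was 1, became 2 with a pseudocount of 0.01 and also with the crossed pairing (Dusp2 and Dusp16 in both) and 0 with a minimum mean of 5 FPKM, which left Dusp2 untested, and ranged from 0 to 4 with a library left out. The number without overlap between groups was 5. It became 6 with erythroid and hepatocyte genes removed and all libraries rescaled to equal summed FPKM (Dusp1 and Dusp7 gained and Dusp6 lost). It became 2 when a mean of 5 FPKM was required, since fewer genes are then tested. With a library left out it ranged from 6 to 7, since 1 group then holds a single library. The median of the phosphatase genes ranged from 0.34 (without cko replicate 2) to 1.16 (without cko replicate 1). Where a library was left out, the lone sample of a group was assumed to vary like the other group.

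Over all tested genes, 247 passed a |log2FC| above 1 with an unadjusted p under 0.01. This number became 126 when a mean of 5 FPKM was required, since fewer genes are then tested, and ranged from 131 (without cko replicate 2) to 462 (without cko replicate 1). With a library left out, 0 genes passed the adjusted threshold of limma, as in the full data, against 2 with voom. Of the 247 genes, 203 were higher in cko (82.2%). The share was 69.2% under median-of-ratios scaling and 65.5% under quantile normalization. With erythroid and hepatocyte genes removed and all libraries rescaled to equal summed FPKM, it was 95.4% (350 against 17). The median of all genes then moved from 0.09 to 0.27. Before rescaling, the summed FPKM was 491983 and 457127 in wt and 412778 and 403900 in cko. Of these, the erythroid genes held 3851, 2419, 1485 and 1583 FPKM and the hepatocyte genes 153 FPKM at most. This setting thus mainly equalized the sums. Quantile normalization gave no count of groups without overlap.

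The replicate numbers in the labels are not tied to a litter or day, and replicate 2 minus replicate 1 correlated at -0.163 over genes between the groups. With the replicate block, 258 genes (215 higher, 43 lower) passed the unadjusted threshold and 0 the adjusted one, 1247 had an unadjusted p under 0.05, and the count of phosphatase genes past the unadjusted threshold stayed at 1. With the crossed pairing 363 genes (298 higher, 65 lower) passed the unadjusted threshold, Dusp2 and Dusp16 among them, and 1 the adjusted one.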
